A study of Mus musculus with 24 samples.

Results

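The 9 genes described here encode the enzymes that methylate lysine 9 of histone H3 (Suv39h1, Suv39h2, Setdb1, Ehmt1, Ehmt2), the corepressor Trim28 and the HP1 proteins (Cbx1, Cbx3, Cbx5). They were listed by name, all 9 were found among the 21909 gene symbols of the RNAseq tables, and each occurred on a single line. The study mapped nucleolus-associated domains (NADs), stretches of chromatin that touch the nucleolus, in mouse embryonic stem cells (ESCs) and in neural progenitor cells (NPCs) made from them. RNAseq of both cell types, which is the base of this account, comprised 6 of the 24 samples of the series. The ESCs were of the E14 line, kept in 2i medium with LIF and the inhibitors CHIR99021 (3 µM) and PD0325901 (1 µM). The NPCs were derived in vitro from E14 cells grown in suspension as embryoid bodies for 8 days, with 2 µM retinoic acid in the last 4 days. For RNAseq each cell type was sampled as 3 replicates of this line, with no further treatment or change of genotype. The NAD lists used below came from other cells, namely E14 lines with an inserted H2B-Dam or H2B-Dam-NoLS transgene and NPCs made from them. Expression of the transgene was induced with doxycycline and Shield1.

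Methylation of lysine 9 marks silent chromatin. SUV39H1 and SUV39H2 place the trimethyl mark at pericentromeric repeats, SETDB1 places it at retroviral and imprinted sequences where TRIM28 and KRAB zinc finger proteins recruit it, and EHMT1 and EHMT2 (GLP and G9a) work as a pair that places the dimethyl mark in euchromatin. HP1 beta (Cbx1), HP1 gamma (Cbx3) and HP1 alpha (Cbx5) bind the methylated lysine through a chromodomain, and in ESCs SETDB1 and TRIM28 keep endogenous retroviruses silent.

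The values are RPKM as the authors computed them, that is, reads divided by the length of the gene in kilobases and by the sequencing depth. The steps between the values of a sample fit whole reads for 7588 of 7594 tested genes to within 0.001 reads. Relative to the first ESC sample, the second and the third held 0.991 and 0.904 times as many reads, and the NPC samples 0.885, 0.801 and 0.948 times, in the order of their numbers. The kilobases in the deposited RPKM were those of the whole gene, introns included: the implied length lay within 1% of the GENCODE gene span for 94.4% of 7511 genes, and within 1% of the exon length for 1.07%. With the span taken as the length, the libraries held between 27261000 reads (NPC replicate 2) and 34050000 reads (ESC replicate 1), and the 9 genes received between 563 reads (Suv39h1 in ESC replicate 3) and 77911 reads (Trim28 in the same sample). Counting error of the lowest value was 4.21%, which covers counting only.

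ESC replicate 3 stood apart. Across the 7835 tested genes its log2 values correlated with those of ESC replicates 1 and 2 with r of 0.963 and 0.966, against 0.999 between replicates 1 and 2 and 0.996 to 0.999 among the NPC samples (genes are not independent replicates). Its values depended on transcript length. The genes were split into 5 groups of near equal size by their longest transcript. In the group with the shortest transcripts, up to 1.87 kb, the median ratio of replicate 3 to the mean of replicates 1 and 2 was 1.58. It was 1.15, 0.927 and 0.763 in the next groups and 0.538 in the group with the longest transcripts, from 4.94 kb, whereas the ratio of replicate 2 to replicate 1 lay between 0.988 and 1.03 in all of them. Among the 9 genes this ratio was lowest for those with the longest transcripts, at 0.463 for Ehmt1, 0.511 for Setdb1 and 0.537 for Cbx5, and highest for Trim28, at 1.28. Several results that rest on this sample are therefore given with and without it. The part of transcript length in the differences between cell types was not tested.

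**Figure D1:**
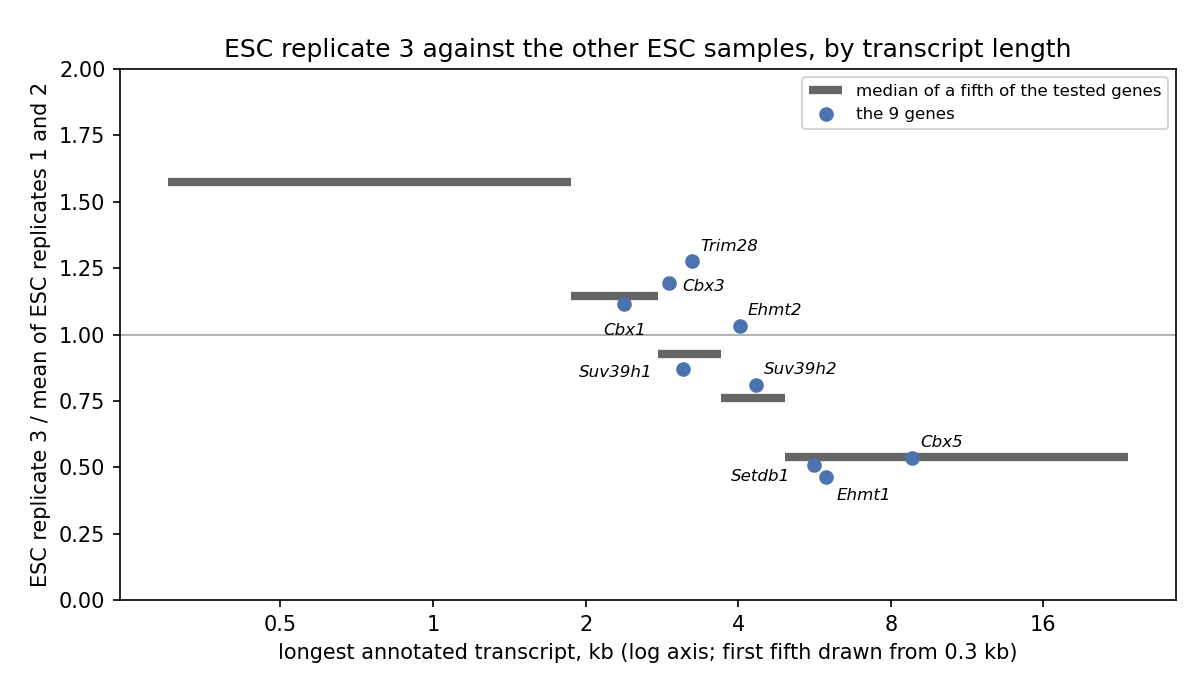
The ratio of RPKM in ESC replicate 3 to the mean of ESC replicates 1 and 2 is plotted against the longest annotated transcript in kb (log axis), as the median of each of 5 groups of tested genes by length (bars) and for each of the 9 genes (points). The medians fall from 1.58 to 0.538, and Ehmt1, Setdb1 and Cbx5 lie near the bar of the longest transcripts.

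Whether transcripts of the H3K9 methylation genes differ between ESCs and NPCs was the question of the comparison. NPCs had more Suv39h1, Ehmt1, Ehmt2 and Cbx5 and less Suv39h2, Trim28, Cbx1 and Cbx3, while Setdb1 was called lower in NPCs only when ESC replicate 3 was set aside or values were scaled by median ratios. Of the 9 genes, 8 passed the test (limma, adjusted p under 0.05 over 7835 genes). Of all tested genes 5500, or 70.2%, passed it, so a count of 8 is near the background and is not a result about these genes. It was 4 genes higher in NPCs, against 36.9% of all tested genes, and 4 lower, against 33.3%, so neither direction stands out. All 9 passed the filter of at least 1 RPKM in at least 3 samples, but Ehmt1 passed it through its NPC samples alone. Under this filter Ehmt1 could therefore be called only as higher. The median log2 difference of the 9 genes was -0.34, against 0.025 over all tested genes. With equal sums it was 0.057, against 0.33, and with quantile normalization -0.093, against -0.059, so its sign and its distance from the other genes depend on scaling. Without ESC replicate 3, all 9 genes passed, against 87.9% of all tested genes. With a log2 difference of at least 1 also asked for, only Suv39h1 and Trim28 passed, 2 of 9, against 28.7%, at the pseudocount of 1 and with the deposited values. Which genes reach 1 depends on scaling: with equal sums Ehmt2 (1.20) and Cbx5 (1.12) exceeded it and Trim28 (-0.71) did not. The RPKM of the cell types did not overlap for 8 of the 9 genes, Setdb1 being the exception, against 80.0% of all tested genes.

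Scaling bears on the size of the differences, and on the calls of Suv39h2, Setdb1, Cbx1, Cbx3 and Cbx5. The RPKM of a sample summed to 104016, 105859 and 139988 in the ESC samples and to 85295, 86521 and 85958 in the NPC samples. With every sample scaled to the same sum, the median log2 difference of all tested genes was 0.33 and 69.4% of the calls were higher in NPCs (3658 against 1612 lower). With median ratio scaling it was -0.19 and 42.1% of the calls were higher (2344 against 3228 lower), whereas with the deposited values 52.6% were. Suv39h1, Ehmt1 and Ehmt2 were called higher and Trim28 lower under each of these scalings and under quantile normalization. Their sizes still moved. Ehmt1 differed by 0.45 with quantile normalization, against 0.78 with the deposited values, and Ehmt2 by 0.53 with median ratios, against 0.80. Differences of Suv39h2, Cbx1 and Cbx3 lost their call with equal sums, and that of Cbx5 with median ratios. Taken relative to the median of all tested genes, Cbx1 differed by -0.37 with the deposited values, -0.27 with equal sums, -0.43 with median ratios and -0.034 with quantile normalization. The same relative difference was -0.46, -0.40, -0.50 and -0.28 for Cbx3, and -0.41, -0.47, -0.37 and -0.65 for Suv39h2. For Cbx5 it was 0.71, 0.79, 0.65 and 0.99, and for Setdb1 -0.48, -0.42, -0.51 and -0.33.

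Among the writers, Suv39h1, on the minus strand of chromosome X (8061171 to 8074760 of GRCm38), had 1.60, 1.49 and 1.35 RPKM in the ESC samples and 6.24, 6.17 and 6.10 in the NPC samples, in the order of their replicate numbers here and for every gene. All NPC samples lay far above all ESC samples, and the spread within each cell type was small. The means were 1.48 ± 0.127 and 6.17 ± 0.0695 (SD, n = 3 each), so NPCs had 4.17 times the ESC level. The log2 difference was 1.53 with a standard error of 0.073 (limma, adjusted p = 3.7e-06), the largest in size of the 9 genes, and 1.49 without ESC replicate 3 (adjusted p = 4.1e-08, in a range over all alternatives of 4.3e-09 to 0.00012).

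Its paralog Suv39h2, on the minus strand of chromosome 2 (3455815 to 3475031), moved the other way. It had 2.00, 1.98 and 1.61 RPKM in the ESC samples and 1.06, 1.29 and 1.23 in the NPC samples. The groups did not overlap, and the lowest ESC value was again that of replicate 3. The ESC level was 1.56 times the NPC level, and the log2 difference was -0.38 with a standard error of 0.079 (limma, adjusted p = 0.00481) and -0.45 without ESC replicate 3. With equal sums it was -0.14 (adjusted p = 0.388, the highest of all alternatives run, the lowest being 1.6e-05). It was -0.60 with a pseudocount of 0.1 and -0.71 with quantile normalization.

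The ratio of Suv39h1 to Suv39h2, which any scaling of a whole sample leaves as it is, was 0.801, 0.754 and 0.835 in the ESC samples and 5.86, 4.79 and 4.96 in the NPC samples, on the scale of the deposited RPKM. Suv39h2 was thus the more abundant of the pair in every ESC sample and Suv39h1 in every NPC sample. Per kilobase of exon the geometric means were 0.471 in ESCs and 3.07 in NPCs, with the same order in every sample. The mean log2 ratio differed by 2.70 between NPCs and ESCs, a 6.52-fold change (two-sided exact permutation test, p = 0.1). With 3 samples against 3 this test cannot go below 0.10, so no ratio or share given here could pass 0.05. It was applied to 5 shares and ratios, each of which gave this smallest value. Without ESC replicate 3 the change was 6.67-fold.

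Setdb1, the methyltransferase that TRIM28 recruits, lies on the minus strand of chromosome 3 (95323525 to 95357202). It had 9.78, 9.65 and 4.97 RPKM in the ESC samples and 5.75, 5.33 and 5.28 in the NPC samples. ESC replicates 1 and 2 lay well above every NPC sample, but replicate 3 lay below them all, so the groups overlapped through this sample. Across all samples the log2 difference was -0.45 with a standard error of 0.24 and did not pass (limma, adjusted p = 0.130). Without ESC replicate 3 the ESC level was 1.78 times the NPC level, with a log2 difference of -0.73 (adjusted p = 4.4e-06). With median ratio scaling of all 6 samples it was -0.70 (adjusted p = 0.0151). Over all alternatives run, the adjusted p lay between 5.8e-07 and 0.812.

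Ehmt1 (GLP), on the minus strand of chromosome 2 (24789928 to 24919614), had 0.766, 0.776 and 0.356 RPKM in the ESC samples and 1.73, 1.80 and 1.81 in the NPC samples. Every NPC sample exceeded every ESC sample, and replicate 3 was the lowest of the ESC samples. The NPC level was 2.81 times the ESC level, or 2.31 times without ESC replicate 3. The log2 difference was 0.78 with a standard error of 0.11 (limma, adjusted p = 0.00083), and 0.65 without that sample. For a gene under 1 RPKM in ESCs this value depends on the pseudocount of 1: it was 1.42 with a pseudocount of 0.1 and 1.48 per kilobase of exon. Its low RPKM goes with a gene span of 129.7 kb that holds 8.12 kb of exon.

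Ehmt2 (G9a), on the plus strand of chromosome 17 (34898469 to 34914052), had 9.69, 10.6 and 10.5 RPKM in the ESC samples and 17.8, 19.1 and 18.8 in the NPC samples. The groups were far apart, and ESC replicate 3 lay between the other ESC samples. The NPC level was 1.82 times the ESC level, with a log2 difference of 0.80 and a standard error of 0.086 (limma, adjusted p = 0.000218).

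Both genes of the GLP and G9a pair thus had higher RPKM in every NPC sample than in any ESC sample. With the filter on RPKM, Ehmt1 could be called only as higher. Without a filter its log2 difference was also 0.78 (limma, adjusted p = 0.00241). Per kilobase of exon, the ratio of Ehmt1 to Ehmt2 was 0.445, 0.413 and 0.192 in the ESC samples and 0.547, 0.530 and 0.541 in the NPC samples. Ehmt1 was the less abundant in every sample, and the groups did not overlap. The log2 ratio differed by 0.72 (two-sided exact permutation test, p = 0.1) and by 0.33 without ESC replicate 3, so this sample carried much of the difference.

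Trim28 (KAP1), the corepressor that binds KRAB zinc finger proteins, lies on the plus strand of chromosome 7 (12999114 to 13031035). It had 59.4, 64.8 and 79.3 RPKM in the ESC samples and 31.0, 29.9 and 29.9 in the NPC samples. Every ESC sample lay above every NPC sample, and ESC replicate 3 was the highest. The ESC level was 2.24 times the NPC level, or 2.05 times without replicate 3. The log2 difference was -1.13 with a standard error of 0.14 (limma, adjusted p = 0.000371), and -1.01 without it. With all 6 samples it was -0.71 with equal sums, -0.63 with quantile normalization and -1.42 with median ratios, each called. The GENCODE span opens 25.0 kb before the RefSeq start of the gene, so the deposited RPKM is divided by 31.9 kb where the exons hold 4.16 kb.

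Of the HP1 genes, Cbx1 (HP1 beta), on the plus strand of chromosome 11 (96789127 to 96808640), had 15.2, 14.7 and 16.7 RPKM in the ESC samples and 12.2, 12.0 and 11.9 in the NPC samples. The groups did not overlap, but they lay close together. The ESC level was 1.29 times the NPC level, with a log2 difference of -0.34 and a standard error of 0.088 (limma, adjusted p = 0.0128). With equal sums the difference was 0.057 (adjusted p = 0.619), and the call was also lost with quantile normalization, at -0.093 (adjusted p = 0.315). It was lost at a similar difference without NPC replicate 2 (-0.34, adjusted p = 0.0580) or NPC replicate 3 (-0.33, adjusted p = 0.0603). Over all alternatives run, its adjusted p lay between 1.7e-05 and 0.654.

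Cbx3 (HP1 gamma), on the plus strand of chromosome 6 (51470360 to 51483704), had 7.34, 6.80 and 8.45 RPKM in the ESC samples and 5.70, 4.96 and 5.20 in the NPC samples. All ESC samples lay above all NPC samples. The ESC level was 1.42 times the NPC level, with a log2 difference of -0.44 and a standard error of 0.10 (limma, adjusted p = 0.00856). The difference was -0.36 without ESC replicate 3. It became -0.069 with equal sums (adjusted p = 0.543, in a range over all alternatives of 8.7e-05 to 0.543). The annotation names 8 pseudogenes of Cbx3, and the tables hold none of them. How reads that map to several places were treated is not given in the sources used here.

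Cbx5 (HP1 alpha), on the minus strand of chromosome 15 (103191544 to 103239816), had 12.6, 12.4 and 6.72 RPKM in the ESC samples and 18.0, 17.5 and 17.4 in the NPC samples. The NPC samples lay close together above every ESC sample, and ESC replicate 3 was far below the other ESC samples. The NPC level was 1.67 times the ESC level, or 1.41 times without that sample. The log2 difference was 0.73 with a standard error of 0.23 (limma, adjusted p = 0.0259), and 0.46 without ESC replicate 3 (adjusted p = 2.95e-05). The call was lost with median ratio scaling, at 0.46 (adjusted p = 0.0572). It was also lost when NPC replicate 1, 2 or 3 was left out (adjusted p = 0.0815, 0.0698 and 0.0702), though the difference was still 0.72, 0.74 and 0.74. Over all alternatives run, its adjusted p lay between 2.01e-06 and 0.0815.

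**Figure D2:**
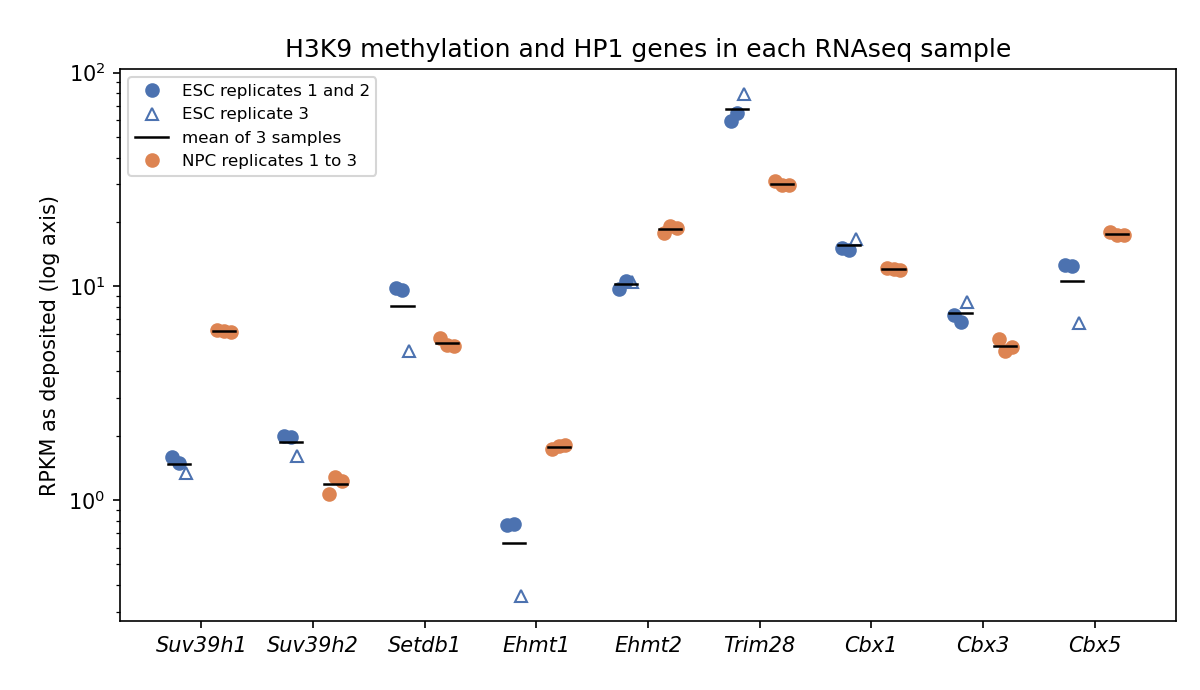
RPKM as deposited is plotted for each of the 9 genes in the 3 ESC and 3 NPC samples, with ESC replicate 3 marked. Setdb1 is the gene whose groups overlap, through ESC replicate 3 at 4.97 RPKM.

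Within the summed RPKM of the HP1 genes, the share of Cbx5 was 35.9%, 36.5% and 21.1% in the ESC samples and 50.1%, 50.7% and 50.5% in the NPC samples. It was higher in every NPC sample than in any ESC sample. The mean share of Cbx5 was 31.2% ± 8.74 in ESCs and 50.4% ± 0.267 in NPCs (SD, n = 3 each), a difference of 19.3 percentage points, or 14.2 points without ESC replicate 3 (two-sided exact permutation test over all 6 samples, p = 0.1). The share of Cbx1 went from 46.3% to 34.5% and that of Cbx3 from 22.5% to 15.1%, and neither overlapped between the groups. The most abundant HP1 transcript was therefore Cbx1 in each ESC sample and Cbx5 in each NPC sample on the deposited scale. Per kilobase of exon the mean shares of Cbx1 and Cbx5 were 49.5% and 38.7% in ESCs and 34.1% and 58.6% in NPCs. Without ESC replicate 3 those of ESCs were 45.2% and 44.4%, close to each other. Per kilobase of the longest transcript the mean shares over all samples were 58.1% and 26.2% in ESCs and 45.0% and 44.0% in NPCs. Which of the 2 genes leads in NPCs thus depends on the length used. The summed RPKM of Cbx1, Cbx3 and Cbx5 was 33.6 ± 1.64 in ESCs and 35.0 ± 0.840 in NPCs (SD, n = 3 each), a difference within the spread of the samples (two-sided exact permutation test, p = 0.4). Per kilobase of exon the sums were 144 ± 11.7 and 161 ± 3.28 (SD, n = 3 each) and did not overlap (exact permutation test, p = 0.1). Their difference was 16.9, and 10.2 without ESC replicate 3. Per kilobase of the longest transcript the sums overlapped, so the comparison of the sums depends on the length used.

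**Figure D3:**
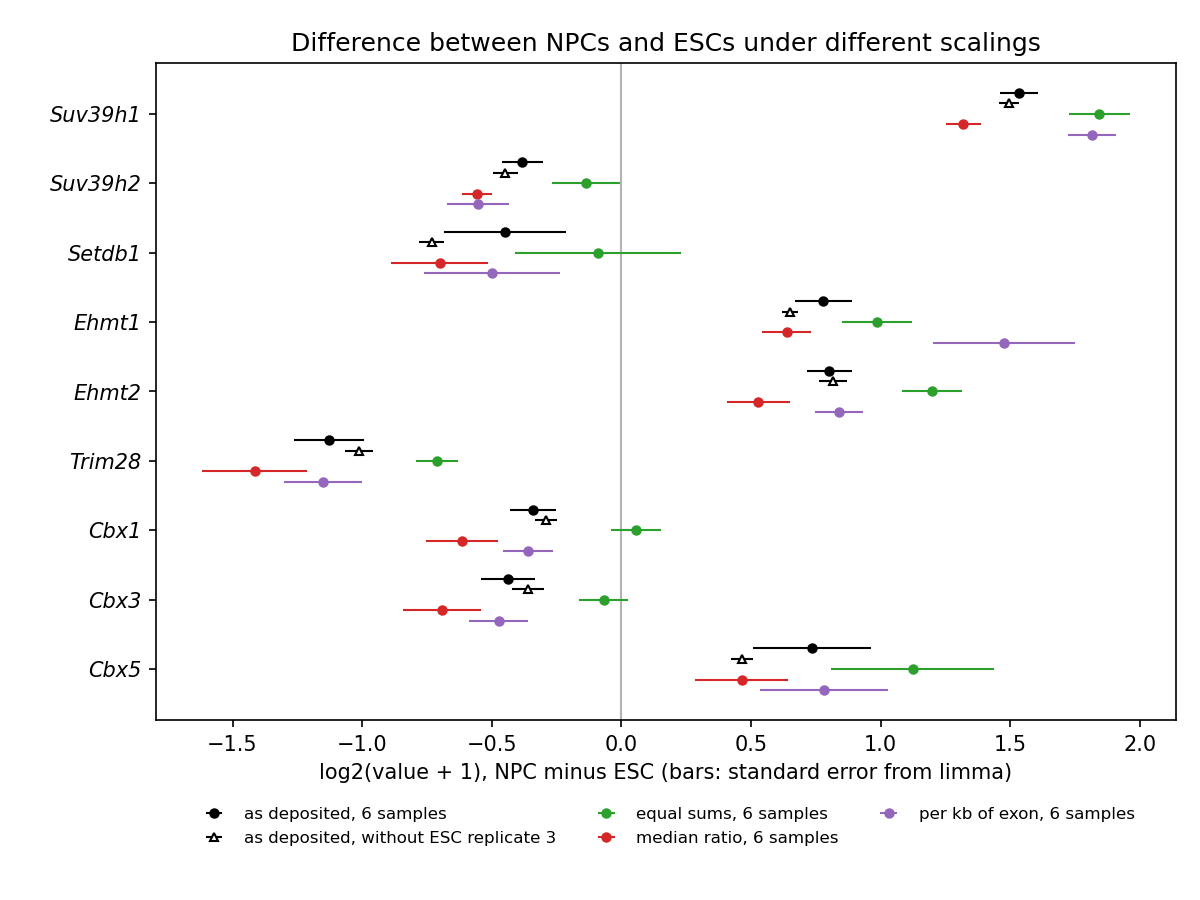
The log2 difference, NPC minus ESC, of log2(value + 1) is plotted for each gene under different scalings, with bars for the standard error from limma. Suv39h1, Ehmt1, Ehmt2 and Cbx5 lie to the right of 0 and Trim28 to the left in every setting drawn, whereas Cbx1 lies at 0.057 with equal sums.

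Levels can be set side by side only per length, and the RPKM rescaled from the gene span to the length of all exons was used for this order. This rescaling, like every value given here per kilobase of exon or of the longest transcript, takes all counted reads as exonic. The methods name exon coverage, but the deposited values were divided by the gene span, and whether intron reads were counted was not established. The factor of this exon scale ran from 2.23 (Cbx3) to 16.0 (Ehmt1). On that scale Trim28 was the most abundant of the 9 genes in every sample, with means of 521 ± 79.0 in ESCs and 232 ± 4.84 in NPCs (SD, n = 3 each). In ESCs it was followed by Cbx1 (71.0), Cbx5 (56.7), Setdb1 (40.0), Ehmt2 (29.1), Cbx3 (16.8), Ehmt1 (10.1), Suv39h2 (8.12) and Suv39h1 (3.82). In this order Cbx1 and Cbx5, Cbx5 and Setdb1, Setdb1 and Ehmt2, and Ehmt1 and Suv39h2 overlapped in their sample values, and ESC replicate 3 gave the lowest value of Cbx5, Setdb1 and Ehmt1. In NPCs Trim28 was followed by Cbx5 (94.5), Cbx1 (55.0), Ehmt2 (52.8), Ehmt1 (28.5), Setdb1 (26.8), Suv39h1 (15.9), Cbx3 (11.8) and Suv39h2 (5.20). There Cbx1 overlapped with Ehmt2, and Ehmt1 with Setdb1. Suv39h1 was the least abundant gene in every ESC sample and Suv39h2 in every NPC sample.

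The same RNA shows what else differed between the groups. All 7 ESC markers passed the test and were lower in NPCs, and their summed RPKM was 412, 414 and 459 in the ESC samples and 2.27, 2.14 and 2.27 in the NPC samples. All but Klf4 passed the filter through their ESC samples alone, so they could be called only as lower. Pou5f1 was the most abundant of them in ESCs in deposited RPKM. Per kilobase of exon its mean log2 was 8.34 in ESCs, against 8.29 for Nanog. That lead rests on ESC replicate 3, where Pou5f1 had 202 RPKM, against 130 and 136 in replicates 1 and 2. All ESC markers but Klf4 and Tdgf1 were under 0.1 RPKM in all NPC samples. Of 6 neural progenitor markers, 4 were called higher in NPCs (Nes, Hes5, Pax6 and Sox1, the last not with quantile normalization), Vim was not called and Fabp7 was not tested. Vim was called higher with equal sums, with quantile normalization and without ESC replicate 3, and Hes5, Pax6 and Sox1 passed the filter through their NPC samples alone. Their sum was 39.6, 41.1 and 49.5 in the ESC samples and 80.0, 84.1 and 86.2 in the NPC samples, with Vim the most abundant in both cell types, in deposited RPKM and per kilobase of exon, and Hes5 at 0 in all ESC samples. Defining markers of the labelled cell types were thus present, Pou5f1 and Nanog in the ESC samples and Nes and Pax6 in the NPC samples.

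Markers of other cell types moved with the NPC group as well. Of 6 mesoderm and endoderm markers, 4 were called higher in NPCs (Gata6, Gata4, Sox17 and Foxa2), and the sum was 1.22, 1.34 and 1.08 in the ESC samples and 14.7, 16.1 and 15.6 in the NPC samples. Gata6 had 6.30, 6.93 and 6.82 RPKM in the NPC samples, the highest of the list in deposited RPKM, while Gata4 was the highest per kilobase of exon. These 4 genes passed the filter through their NPC samples alone. The other 2 were not tested: T had a mean of 0.959 RPKM in ESCs and 0.0123 in NPCs, and was called lower per kilobase of exon, and Mixl1 had means of 0.159 and 0.0657. Of 5 mesenchyme and neural crest markers, Col1a1 and Col1a2 were called higher and Foxd3 lower, and the sum was 7.78, 8.32 and 7.26 in the ESC samples and 23.4, 30.1 and 30.3 in the NPC samples. Foxd3 was the highest in ESCs and Col1a1 in NPCs, in deposited RPKM and per kilobase of exon. Col1a1 and Col1a2 passed the filter through their NPC samples alone and Foxd3 through its ESC samples alone, and the crest marker Sox10 was under 0.1 RPKM in all samples. Of 5 neuron markers, Stmn2 and Tubb3 were lower in NPCs (Tubb3 was not called with equal sums, and Stmn2 passed the filter through its ESC samples alone), and Dcx was at 0 in all ESC samples and at 1.05, 0.821 and 0.874 RPKM in the NPC samples. Elavl3 and Map2, like Dcx under the filter, had means of 0.0250 and 0.0133 RPKM in ESCs and 0.826 and 0.147 in NPCs. Per kilobase of exon all 5 were tested, and Dcx, Map2 and Elavl3 were called higher and Stmn2 and Tubb3 lower. The sum of the neuron markers was 11.1, 12.2 and 14.5 in the ESC samples and 6.86, 5.54 and 6.62 in the NPC samples, with Tubb3 the highest in deposited RPKM in both. Stmn2 was the highest in ESCs and Tubb3 in NPCs per kilobase of exon. The part of these other cells in the differences of the 9 genes was not tested. In bulk RNA, fewer cells of a type and less RNA per cell cannot be told apart. The labels give no batch, and any difference in handling between the cell types cannot be told apart from the cell type. The methods of the study name paired-end or single-end sequencing for RNAseq and do not say which samples had which. The part of read layout in the values was not tested.

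Genes of S phase and mitosis were described in the same way. Of 12 such genes, 10 were called lower in NPCs, against 33.3% of all tested genes, Mki67 was called higher and Top2a was not called. Without ESC replicate 3, Top2a was called lower as well, where 44.0% of all tested genes were lower. Their median log2 difference was -0.65, against 0.025 over all tested genes. Their summed RPKM was 432, 440 and 412 in the ESC samples and 259, 267 and 259 in the NPC samples, with Pcna the highest in deposited RPKM in both. By mean log2 per kilobase of exon, Mcm3 was the highest in ESCs and Top2a in NPCs. Mcm5, a subunit of the replicative helicase, fell by 1.35 on the log2 scale and the mitotic cyclin Ccnb1 by 1.22 (limma, adjusted p = 2.15e-05 and 3.28e-05). Mki67 had 15.1, 13.9 and 5.67 RPKM in the ESC samples and 25.1, 26.7 and 24.4 in the NPC samples, a log2 difference of 1.18 (adjusted p = 0.0182), and 0.77 without ESC replicate 3. With equal sums 5 of the 12 were lower (Pcna, Mcm3, Mcm5, Mcm6 and Ccnb1), against 20.6% of all tested genes. The part of proliferation in the differences of the 9 genes was not tested. Of 5 genes used in all cells, Actb, Gapdh, Ppia and Hprt were called lower in NPCs, against 33.3% of all tested genes, and Tbp was not called. The calls of Actb and Gapdh were lost with quantile normalization. Hprt fell by 1.51 and Ppia by 1.19 on the log2 scale.

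Partners of the writers were described by the same test. Of 13 partners and recruiters, 9 were tested, 2 were called higher in NPCs (Wiz and Zfp644) and 4 lower (Zfp57, Zfp809, Daxx and Mphosph8), where 36.9% of all tested genes were higher and 33.3% lower. Their median log2 difference was -0.079, against 0.025 over all tested genes. This median was -0.26 against -0.0016 without ESC replicate 3, where Morc2a was also called lower, 0.24 against 0.33 with equal sums, and -0.30 against -0.19 with median ratios. Per kilobase of exon, where all 13 were tested, it was -0.51 against 0.20. It thus lay below the median of all tested genes in each of these settings, while its own sign changed with equal sums. Mphosph8 lost its call with equal sums. Zfp57, the KRAB zinc finger protein that brings TRIM28 to imprinted regions, had 45.2, 42.6 and 33.8 RPKM in the ESC samples and 12.0, 13.2 and 13.1 in the NPC samples. It was lower in every NPC sample and fell by 1.58 on the log2 scale (limma, adjusted p = 6.54e-05). Zfp809, which recruits TRIM28 to retroviral sequences, had 3.32, 2.97 and 1.36 RPKM in the ESC samples and 0.511, 0.530 and 0.497 in the NPC samples. It fell by 1.18 (adjusted p = 0.00307), and its log2 difference was -1.45 without ESC replicate 3. Trim28 itself fell by 1.13. Wiz, a zinc finger partner of the G9a and GLP complex, went from 2.00, 2.14 and 0.824 RPKM to 5.49, 5.71 and 5.85. Its log2 difference was 1.37 (adjusted p = 0.00121), and 1.12 without ESC replicate 3. Zfp644, another partner of that complex, was higher by 0.49 (adjusted p = 0.00247), but only by 0.086, without a call, with quantile normalization. Zfp809 passed the filter through its ESC samples alone and Zfp644 through its NPC samples alone.

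Of 4 other SET or PR domain methyltransferases, only Prdm2 passed the filter, through its NPC samples alone. It was called higher in NPCs by 0.45 (limma, adjusted p = 0.0251), and by 0.28 without ESC replicate 3, but was not called with median ratios or per kilobase of exon, and with quantile normalization its difference was -0.092. Setdb2, Mecom and Prdm16 stayed under the filter. Setdb2 and Mecom passed it per kilobase of exon, and Mecom, with mean RPKM of 0.000168 in ESCs and 0.0438 in NPCs, was called higher.

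Of 12 HP1 partners and other readers of the mark, 10 were tested, and 5 were called lower (Uhrf1, Sgo1, Chaf1b, Lbr and Lrwd1) in NPCs with the deposited values, against 33.3% of all tested genes, while the other 5 were not called. Their median log2 difference was -0.28, against 0.025 over all tested genes, and 0.087 against 0.33 with equal sums. Uhrf1, which reads the mark and recruits the maintenance DNA methyltransferase, had 43.9, 45.3 and 24.2 RPKM in the ESC samples and 11.9, 13.6 and 13.4 in the NPC samples. It fell by 1.42 on the log2 scale (limma, adjusted p = 0.00219). Without ESC replicate 3 its log2 difference was -1.71. Sgo1, the protector of centromeric cohesin, fell by 0.92 (adjusted p = 0.000140). Which genes of this list were called depends on scaling and on ESC replicate 3. With median ratios 7 genes were lower (41.2% of all tested genes were). With equal sums Pogz, Kmt5b and Kmt5c were higher (46.7% of all tested genes were) and Uhrf1, Sgo1 and Chaf1b lower (20.6% were). Without ESC replicate 3, Pogz and Kmt5b were higher (43.9% of all tested genes were) and 6 genes lower (44.0% were).

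Of 11 H3K9 demethylase genes, 7 were tested, and 3 were called higher (Phf2, Kdm7a and Kdm4b), against 36.9% of all tested genes. Phf2 had 0.236, 0.207 and 0.0679 RPKM in the ESC samples and 1.74, 1.89 and 1.82 in the NPC samples, a log2 difference of 1.27 (limma, adjusted p = 4.91e-06). Kdm7a had 0.223, 0.199 and 0.0759 RPKM in the ESC samples and 1.72, 1.59 and 1.78 in the NPC samples, a log2 difference of 1.21 (adjusted p = 4.78e-06). All 3 called genes passed the filter through their NPC samples alone, so they could be called only as higher and their count is no support for a direction. Kdm1a, Kdm3a, Kdm3b and Kdm4a were not called. With equal sums Kdm1a was also called higher, by 0.32, where 46.7% of all tested genes were higher. Without ESC replicate 3, Kdm4a was also called higher (43.9% of all tested genes were) and Kdm3b lower (44.0% were).

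The Polycomb chromobox genes carry the same kind of domain as the HP1 genes but read a mark on lysine 27. Cbx7, the main chromobox gene of Polycomb complexes in ESCs, had 5.85, 6.18 and 3.46 RPKM in the ESC samples and 0.165, 0.165 and 0.164 in the NPC samples. It passed the filter through its ESC samples alone and fell by 2.37 on the log2 scale (limma, adjusted p = 3.85e-05). Without ESC replicate 3 its log2 difference was -2.59. Cbx2 had 4.56, 4.82 and 3.49 RPKM in the ESC samples and 17.3, 17.7 and 16.7 in the NPC samples, a log2 difference of 1.79 (adjusted p = 1.87e-05). Cbx6 was lower, by -0.61, and not called with equal sums. The log2 differences of the HP1 genes lay between -0.44 and 0.73, and whether they differ from those of Cbx2, Cbx6 and Cbx7 was not tested.

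A list held 7 germline and 2-cell genes named as silenced through H3K9 methylation in ESCs. Of these only Dazl passed the filter, through its ESC samples alone, so Dazl was not silent in the ESC samples. It had 3.16, 2.68 and 3.22 RPKM in the ESC samples, 0.00467 in NPC replicate 1 and 0 in NPC replicates 2 and 3, and was called lower (limma, adjusted p = 5.73e-07). The other 6 stayed under 1 RPKM, and Wfdc15a and Zscan4c were at 0 in all NPC samples. The summed RPKM of the list was 3.59, 3.11 and 3.81 in the ESC samples and 0.0143, 0.0238 and 0.00272 in the NPC samples.

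The tested gene with the most similar pattern over the 6 samples was found by Pearson correlation of log2(RPKM + 1). It was Socs5 for Suv39h1, Zfp598 for Suv39h2, Washc5 for Setdb1, Bicd2 for Ehmt1, Tusc1 for Ehmt2, Nubp2 for Trim28, Ptpn2 for Cbx1 and Kmt2a for Cbx5. Of these the correlation was lowest for Zfp598, at 0.998. With 2 groups of 3 samples such values are common: 1194 of 7835 genes reached r above 0.99 with Suv39h1 and 465 with Trim28, but 15 with Suv39h2. They describe the pattern alone.

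The positions of the genes were set against the deposited NAD lists, which hold 1769 NADs in ESCs and 1447 in NPCs. The lists came from the induced transgenic lines and not from the cells of the RNAseq samples. Each list gives a single score per NAD and, by the methods of the study, holds only peaks found in both replicates. No value of a NAD thus has an error, and no test was made. A gene outside the NADs may still lie in a peak of a single replicate. In ESCs 4 of the 9 genes overlapped a NAD (Suv39h2, Setdb1, Ehmt1 and Cbx5), where 27.1% of 21402 genes did. In NPCs 2 of them did (Ehmt1 and Cbx5), where 21.6% did. Suv39h2 lay in an ESC NAD from 3399772 to 3501791 on chromosome 2, with a score of 0.0366, and the nearest NAD of NPCs was 3.12 Mb away. Setdb1 lay in an ESC NAD from 95300311 to 95500110 on chromosome 3, with a score of 0.0423, and the nearest NPC NAD began 42.4 kb from the gene. The study mapped NADs at a resolution of 100 kb, about the length of that NPC NAD. Edges of NADs and distances below this resolution, such as 42.4 kb, are therefore not resolved. Transcripts of Suv39h2 were lower in NPCs, where it lay in no NAD, and so were those of Setdb1 without ESC replicate 3.

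Ehmt1 lay in the ESC NAD from 19799709 to 26000945 on chromosome 2, which is 6.20 Mb long with a score of 0.0871. In NPCs an NAD of 99.4 kb, from 24800640 to 24900012, lay within the gene with a score of 0.0581 and left out its transcription start. The start lay past the edge of that NAD by less than the resolution of the lists. Cbx5 overlapped a NAD from 103200109 to 103499512 on chromosome 15 in ESCs, with a score of 0.0142, below the median of 0.0256 of the list. In NPCs it overlapped one from 103200109 to 103299693, with a score of 0.0440. Both Ehmt1 and Cbx5 had higher RPKM in NPCs while they overlapped a NAD in both cell types. Of the genes outside NADs, Trim28 lay 99.4 kb from the nearest NAD in ESCs and 69.7 kb in NPCs, Suv39h1 lay 2.43 Mb and 0.761 Mb away, and Ehmt2 1.20 Mb away in both. The distances of Trim28 are below the resolution of the lists. Scores of different cell types are not compared, since they carry no replicate error.

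All 9 genes had an entry in the RefSeq promoter table of GRCm38.p6, with 13 starts between them. In the 250 bases before the start nearest to the GENCODE start, the 9 genes held between 11 (Suv39h1) and 29 (Cbx3) CpG, with a median of 18. The median of all 32851 promoters was 6, and 35.6% of them held at least 11. All 9 genes thus lay above the median, those higher in NPCs as well as those lower. With the deposited values, transcripts of Suv39h1 and Trim28 differed most in opposite directions. The sequences of these genes and of Cbx5 are shown so that the CpG can be seen in genes of both directions. They are given 5′ to 3′ along the strand of the gene, end at the base before the start, and have each CG in capitals. Suv39h1 is chrX:8074761-8075010 (minus strand, 11 CpG), Trim28 is chr7:13023902-13024151 (plus strand, 17 CpG) and Cbx5 is chr15:103239853-103240102 (minus strand, 22 CpG).
Suv39h1: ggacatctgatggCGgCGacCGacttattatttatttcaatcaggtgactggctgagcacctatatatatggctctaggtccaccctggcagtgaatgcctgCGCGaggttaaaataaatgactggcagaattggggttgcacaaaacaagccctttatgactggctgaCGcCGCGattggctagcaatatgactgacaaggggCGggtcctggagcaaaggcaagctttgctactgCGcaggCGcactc
Trim28: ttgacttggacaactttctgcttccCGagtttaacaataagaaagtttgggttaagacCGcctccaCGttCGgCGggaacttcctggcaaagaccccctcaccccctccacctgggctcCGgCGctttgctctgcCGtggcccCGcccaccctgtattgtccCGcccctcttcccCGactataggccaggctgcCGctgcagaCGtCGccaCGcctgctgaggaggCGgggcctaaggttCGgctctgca
Cbx5: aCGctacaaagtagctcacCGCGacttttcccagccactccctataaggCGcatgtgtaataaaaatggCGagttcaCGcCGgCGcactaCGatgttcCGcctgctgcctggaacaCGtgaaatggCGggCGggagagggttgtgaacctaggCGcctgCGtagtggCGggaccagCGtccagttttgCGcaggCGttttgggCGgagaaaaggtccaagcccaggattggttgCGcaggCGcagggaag

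Some readings of the values are limited by the annotation. Exons of Suv39h2 overlap those of Dclre1c on the opposite strand, and exons of Setdb1 overlap those of Cers2, and all 4 genes are in the tables. Zbtb45, also in the tables, overlaps the span of Trim28 on the opposite strand but shares no exon sequence with it. Exons of Suv39h1, Suv39h2, Setdb1 and Ehmt1 also overlap those of annotated genes that the tables do not hold, for Ehmt1 on the same strand. The labels name a library kit that does not keep the strand and the methods of the study name a stranded kit, and the use of strand in counting is not given in the sources used here. The part of these overlaps in the values of Suv39h1, Suv39h2, Setdb1, Ehmt1 and Trim28 was not tested.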

How the data were processed

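RNAseq of 3 ESC and 3 NPC samples was used. RPKM were deposited by the authors in 1 table per cell type. Their methods name SortMeRNA, Trimmomatic, STAR, mm10 and a custom pipeline, whereas the labels name Subread 1.4.6-p4 and Bowtie2 2.3.4.3. The NAD lists hold the authors' score per NAD, H2B-Dam-NoLS normalized to H2B-Dam. ChIPseq and the other samples were not used here.

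Log2(RPKM + 1) of the 7835 genes with at least 1 RPKM in at least 3 of 6 samples was compared with limma 3.58.1 in R 4.3.3 (lmFit, eBayes with trend, two-sided), with Benjamini-Hochberg adjustment over these genes, and called at an adjusted p under 0.05. A symbol on several lines kept the line with the highest mean. Shares and ratios were compared with exact permutation tests (scipy 1.17.1, Python 3.11.15, numpy 2.4.6, pandas 2.3.3; figures with matplotlib 3.10.9). Positions and lengths came from GENCODE M21. Start positions of NADs count from 0 and are printed 1 higher. The tests were checked on simulated data.

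The members and lists were chosen with earlier results of these data known. Named genes were all 9 members and, of each other list, up to 2 called genes that rose most and up to 2 that fell most; markers and genes used in all cells could be given as levels. Other genes named to spell out small counts, such as Top2a, Daxx, Lbr and Kdm4b, were chosen after their values were seen. For each member the tested gene with the highest Pearson correlation was also named; 2 results under these rules are not reported here. Alternatives were other pseudocounts, filters, scalings, a replicate block, a log2 threshold, duplicated symbols left out, and each sample left out. A filter on the mean in either cell type, values per kilobase of exon or of the longest transcript, and equal sums, median ratios or exon length without ESC replicate 3 were chosen after seeing the data.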

Additional observations from a re-analysis of the deposited data

How the results depend on the processing

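Suv39h1, Ehmt1 and Ehmt2 were called higher and Trim28 lower in NPCs in every alternative that tested them, apart from the log2 threshold of 1, where Ehmt1 and Ehmt2 were not called, and the shares of the HP1 genes and the ratios of paralogs kept their direction in all 9 alternatives run for each. The filter on a mean of at least 5 RPKM left Suv39h1, Suv39h2 and Ehmt1 untested. In the other alternatives Setdb1, Cbx1, Cbx3, Cbx5 and Suv39h2 crossed the threshold at least once, and the cause was not tested.

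Without a filter 11454 genes were called (7245 higher, 4209 lower). With a mean of at least 5 RPKM 1800 were called (595 higher, 1205 lower), 67.6% of 2664, and 5 of the 6 genes tested there, 2 of them higher. With a log2 difference of at least 1, 2246 were called (1301 higher, 945 lower), and 2 of the 9 genes, 1 higher and 1 lower. Fewer genes can be called under these rules by construction, and more without a filter. With equal sums 67.3% of all tested genes were called and 20.6% (1612 genes) were lower, and 5 of the 9 genes were called, 1 of them lower, while the log2 difference of Cbx1 turned from -0.34 to 0.057 (adjusted p = 0.619). In alternatives chosen after seeing the data, 8658 genes were called per kilobase of exon (5120 higher), 10565 on that scale without ESC replicate 3 (5878 higher, 4687 lower), and 4086 were lower with median ratios without that sample. With each sample left out in turn, 4616 to 6884 genes and 6 to 9 of the 9 genes were called. Counted by transcription start, 1 of the 9 genes lay in a NAD in NPCs.

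With the replicate number as a block, 5214 genes and 7 of the 9 genes were called. Cbx1 lost its call at the same log2 difference of -0.34 (limma, adjusted p = 0.0543). No label pairs the samples by number. Deviations of ESC and NPC samples of the same number correlated with r of 0.114, -0.0827 and 0.0323 across genes. For samples of different numbers r lay between -0.0895 and 0.0893. These correlations cannot decide whether samples of the same number were handled together, since the deviations within a cell type depend on each other and ESC replicate 3 stood apart.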
